A study of Mus musculus with 4 samples.

Results

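The inducible ER71 line without doxycycline was set against wild-type cells, a comparison of lines in which ER71 had not been induced by the drug. Both arrays measured RNA of Flk-1-positive mesoderm from mouse embryonic stem (ES) cells, sorted on day 3 of differentiation. They are 2 of the 4 arrays of the series. The other arrays hold the same inducible line (iER71) given doxycycline from day 2 to 3 and ES cells that lack Er71 (Er71-/-). The labels call the genotype of both iER71 arrays wild-type, and a separate wild-type ES line stands beside the Er71-/- line. No parent line, strain, passage, clone or transgene locus is given for any of them in the sources used here. The ES cells had been grown on a feeder layer (PMEF) with LIF before differentiation in serum with ascorbic acid.

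Genes entered the comparison if their probe set carries exactly 1 gene symbol, taking the brightest probe set of a gene, and if at least 1 of the 4 arrays lay at or above the overall median (log2 intensity 6.16). This kept 8843 of 14860 named genes, and they are called detected here. A gene was called at a log2 difference of at least 1, that is 2-fold, between the arrays. Each group has 1 array, so no value below has an error or a test. Differences between cultures, sorts and arrays cannot be told apart from differences between the lines.

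The labels of the untreated array disagree. Its source and characteristics say that doxycycline was not given, whereas its title calls the cells ER71 overexpressed. The rule of this comparison follows the characteristics. Etv2 had a log2 intensity of 10.50 on the iER71 array whose characteristics say doxycycline and 10.05 on the one without. The vessel genes Cdh5 (11.26 against 9.19), Tek (10.72 against 7.99), Fli1 (11.33 against 9.64) and Emcn (7.71 against 4.76) were likewise higher on the doxycycline array, the direction that the characteristics, not the titles, give for ER71 induction. With the iER71 array that received doxycycline (titled control) in its place, 233 genes were at least 2-fold higher and 130 at least 2-fold lower than in wild type.

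ER71, encoded by Etv2, is an ETS-family transcription factor that early mesoderm needs to form blood and vessels. Flk-1 is the VEGF receptor encoded by Kdr and marks that mesoderm. In inducible lines of this type a doxycycline-responsive promoter drives the added gene, and some transcription can occur without the drug. ES cell lines also differ in strain background, in imprinted gene expression and in how fast they leave the pluripotent state.

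Both arrays were alike for most genes. Of the 8843 detected genes, 94.5% differed by less than 0.5 on the log2 scale, and the median absolute difference was 0.068. At least 2-fold differences were found for 88 genes (0.995%). Of these, 39 (0.441%) were higher and 49 (0.554%) lower without doxycycline than in wild type. The other pairs of arrays differed by that size at 148 to 584 genes, so this pair had the fewest. It also shared the most exactly equal values, at 20.0% of probe sets, though the other pairs shared 15.1% to 19.2%. Why arrays share exact values was not tested, and genes with equal values count among those alike. At 4-fold, 7 genes were lower (0.0792%) and 1 gene was higher (0.0113%). The lower genes were Hprt, Hbb-y, Prdx2, Plac1, H19, Tdo2 and Scoc. The higher gene was the olfactory receptor Olfr930 (4.05-fold), named although the naming rule leaves out its family. Olfr930 passed the detection filter through the untreated array alone (6.34), where it was high, and its wild-type value was 4.33. Of the called genes, 18 of the 39 and 10 of the 49 lay below the detection level on their dimmer array, so their folds rest on a value near background.

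**Figure D1:**
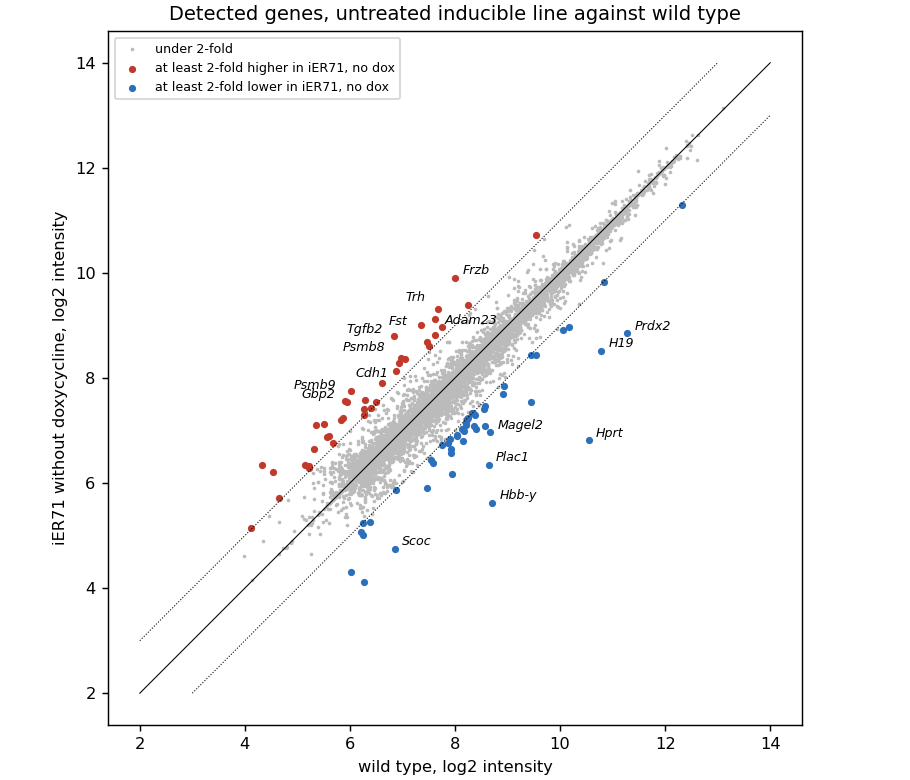
Log2 intensity of the 8843 detected genes on the wild-type array (x axis) and on the array of iER71 cells without doxycycline (y axis). Dotted lines mark 2-fold. The 39 red and 49 blue genes lie outside them, with Hprt farthest from the diagonal at 13.3-fold.

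The markers that define the sorted cells were present on both arrays. Kdr had a log2 intensity of 9.96 without doxycycline and 9.89 in wild type, a 1.05-fold difference. Etv2 was at 10.05 without doxycycline, 10.50 with it, 8.89 in Er71-/- cells and 9.39 in wild type. It was thus 1.57-fold higher in the untreated line than in wild type, under the 2-fold threshold. Whether its probes read the native gene, the added copy or both is not given in the sources used here. The vascular cadherin gene Cdh5 differed by 1.11-fold, the blood and vessel regulator Tal1 by 1.09-fold and the mesodermal receptor gene Pdgfra by 1.28-fold.

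The largest difference in either direction was at Hprt, the X-linked gene for the purine salvage enzyme hypoxanthine phosphoribosyltransferase. Its log2 intensity was 6.81 in iER71 without doxycycline, 9.43 with doxycycline, 10.64 in Er71-/- and 10.55 in wild type. The untreated array was by far the lowest, 13.3-fold under wild type, and the doxycycline array also lay under the other 2 arrays, 2.32-fold below Er71-/-. Plac1, a gene named for its expression in placenta, was at 6.35 and 6.24 on the iER71 arrays, 7.49 in Er71-/- and 8.64 in wild type, 4.90-fold lower without doxycycline than in wild type. Fam122b was at 6.92 and 6.68 on the iER71 arrays, 7.97 in Er71-/- and 8.04 in wild type, a 2.17-fold difference. For both of these genes the iER71 arrays lay together under the others.

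Hprt, Plac1 and Fam122b follow each other in the order of measured genes along the X chromosome, as placed in the RefSeq table of GRCm38.p6. On their far sides, Phf6 differed by only -0.14 and Mospd1 by only -0.28 on the log2 scale (untreated minus wild type), and Fam122c, next to Fam122b, was not detected. The glypican genes Gpc3 and Gpc4, a little farther away, differed by 0.14 each, and Hs6st2, beyond them on the same side, by -0.53. Across 280 detected X-linked genes, 4 were at least 2-fold lower and none was higher by that size, a share of 1.43% against 0.995% for all detected genes. The remaining gene of the 4 is Spin2c. In the whole gene order 4 neighbouring pairs of detected genes were called in the same direction and none in opposite directions. Besides the 2 pairs of this block, these were Psmb9 with Psmb8, and Aim2 with the olfactory receptor gene Olfr429.

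**Figure D2:**
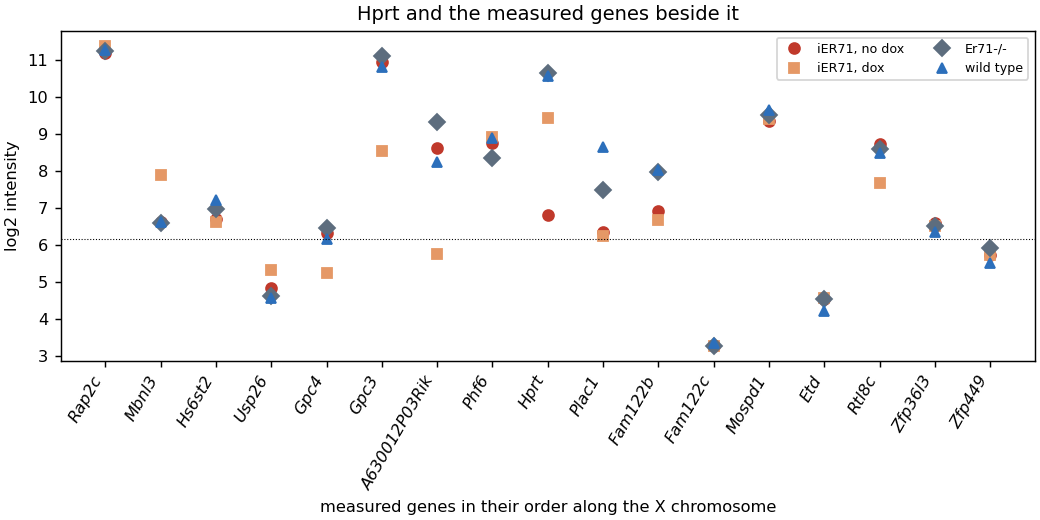
Log2 intensity on each of the 4 arrays (y axis) for Hprt and the 8 measured genes on each side of it, in their order along the X chromosome (x axis, not to scale). The dotted line is the detection level of 6.16. The untreated array is low at Hprt (6.81), and both iER71 arrays are low at Plac1 and Fam122b.

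A second pair of arrays, which shares no array with the first, also sets the inducible line beside non-inducible cells: iER71 with doxycycline against Er71-/-. That pair differs in ER71 as well, and in it 406 genes (4.59%) were at least 2-fold higher and 178 (2.01%) lower. Of the 39 genes higher in the untreated line, 10 were higher by that size in this pair too (0.113% of detected genes), 25.6% of the first list and 2.46% of the second. Of the 49 lower genes, 13 were lower in both (0.147%), 26.5% of the first list and 7.30% of the second. Another 5 genes (Frzb, Fst, Lhx1, Msgn1 and Car3) were higher in the first pair and lower in the second. They are 12.8% of the higher list, against 2.01% of all detected genes lower in the second pair. The reverse held for 3 genes (Pecam1, Hapln1 and Arhgap29), 6.12% of the lower list against 4.59%.

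Among the 13 genes lower in both pairs, Prdx2 stood out by size. It encodes a peroxiredoxin, an enzyme that removes hydrogen peroxide. Its log2 intensity was 8.85 without doxycycline, 7.99 with it, 11.10 in Er71-/- and 11.28 in wild type. The iER71 arrays therefore lay 5.38-fold under wild type and 8.67-fold under Er71-/-, in that order of pairs. Of the other peroxiredoxin genes in the redox list, Prdx3 was 2.13-fold lower without doxycycline than in wild type, while Prdx1 differed by 1.09-fold and Prdx4 by 1.00-fold. Scoc, a coiled-coil gene of the Golgi, was at 4.75 and 4.61 on the iER71 arrays and at 6.64 in Er71-/- and 6.85 in wild type, below the detection level on both iER71 arrays. The imprinted MAGE-family gene Magel2 was at 6.96 without doxycycline, 5.78 with it, 8.06 in Er71-/- and 8.67 in wild type, 3.27-fold lower in the untreated line than in wild type.

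The other genes lower in both pairs differed by 2.01-fold to 2.57-fold between untreated and wild type, apart from Hprt and Plac1 given above. Nexn, an actin-binding gene of muscle, was at 6.58 and 6.81 on the iER71 arrays, 8.25 in Er71-/- and 7.93 in wild type. The carbonic anhydrase gene Car4 was at 8.97 and 8.54 against 10.71 and 10.17 in the same order. For both genes the iER71 arrays lay more than 2-fold under each of the others. Spin2c, of the spindlin family, and the histone gene H2bc22 also had both iER71 arrays low, but near-identical copies of these genes make their values uncertain. Pcsk5, a proprotein convertase gene, was at 6.90 without doxycycline and 5.25 with it, against 8.51 in Er71-/- and 8.04 in wild type. Cpne4 (2.18-fold), of the calcium-binding copines, Fam122b and Hand1 complete the set. Hand1, a transcription factor gene of heart and extra-embryonic mesoderm, was at 7.33, 6.61, 8.63 and 8.33 without and with doxycycline, in Er71-/- and in wild type. It passed 2-fold by little (2.01-fold).

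Among the 10 genes higher in both pairs were several of the cell surface. Cdh1, the gene of the epithelial adhesion molecule E-cadherin, was at 8.29 without doxycycline, 8.42 with it, 7.23 in Er71-/- and 6.93 in wild type, 2.56-fold higher in the untreated line than in wild type. Adam23, a membrane protein of the disintegrin family, was at 9.13, 8.99, 7.08 and 7.63 in the same order, and its other probe set differed by 0.93 on the log2 scale between untreated and wild type, just under the threshold. The amino acid transporter gene Slc7a7 was at 8.36 and 8.64 on the iER71 arrays, 7.26 in Er71-/- and 7.05 in wild type. In these genes both iER71 arrays lay above both other arrays. Prom1, whose product CD133 marks membrane protrusions of progenitor cells, was 2.46-fold higher without doxycycline than in wild type, with 7.59 and 8.24 on the iER71 arrays against 6.40 and 6.29. Exoc3l, an exocyst-like gene, was 2.46-fold and Ctse, a protease gene, 2.15-fold higher. Wild type lay below the detection level for Ctse. Glo1, of methylglyoxal detoxification, lay under 2-fold (1.67-fold) but was likewise above on both iER71 arrays, at 10.90 and 11.07 against 10.13 in Er71-/- and 10.16 in wild type.

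The remaining genes higher in both pairs were spread more widely over the arrays. Aim2, a sensor of cytosolic DNA, was at 8.82 without doxycycline, 10.40 with it, 6.60 in Er71-/- and 7.62 in wild type. The guidance ligand gene Sema3a was at 8.61, 7.35, 6.10 and 7.50, so wild type and the doxycycline array were alike. The germ cell helicase gene Ddx4 (5.71, 7.22, 5.54 and 4.65) and the histone gene H2bu2 (5.15, 6.56, 2.88 and 4.13) lay below the detection level on the untreated and wild-type arrays and entered through the doxycycline array. H2bu2 also has near-identical copies.

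**Figure D3:**
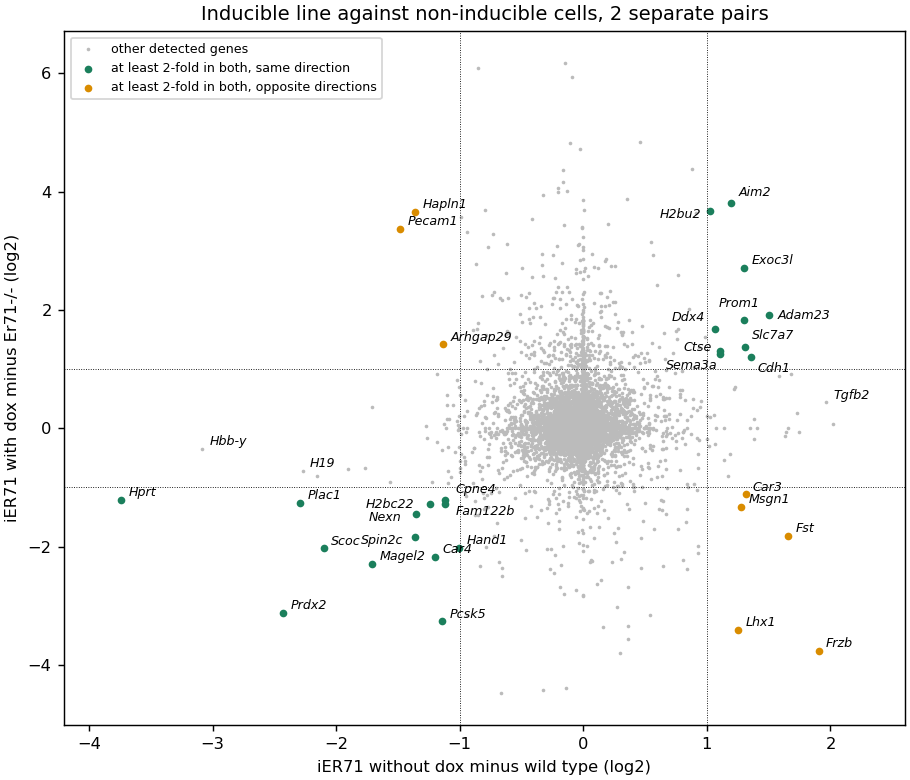
Log2 difference between untreated iER71 and wild type (x axis) and between iER71 with doxycycline and Er71-/- (y axis) for the 8843 detected genes. Dotted lines mark 2-fold. The 10 genes at the upper right and the 13 at the lower left passed 2-fold in the same direction in both pairs, and 8 orange genes passed it in opposite directions.

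The arrays that the rule did not use can be placed by whether they lay nearer the untreated or the wild-type array. Such placing shares these arrays with the call itself and is only a description. Among the 39 higher genes, both other arrays lay nearer untreated for 11, both nearer wild type for 10, the doxycycline array nearer untreated and Er71-/- nearer wild type for 12, and the reverse for 6. Among the 49 lower genes these counts were 21, 6, 17 and 5. Over all 6848 detected genes with unequal values the shares were 36.9%, 23.6%, 19.9% and 19.7% in that order.

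**Figure D4:**
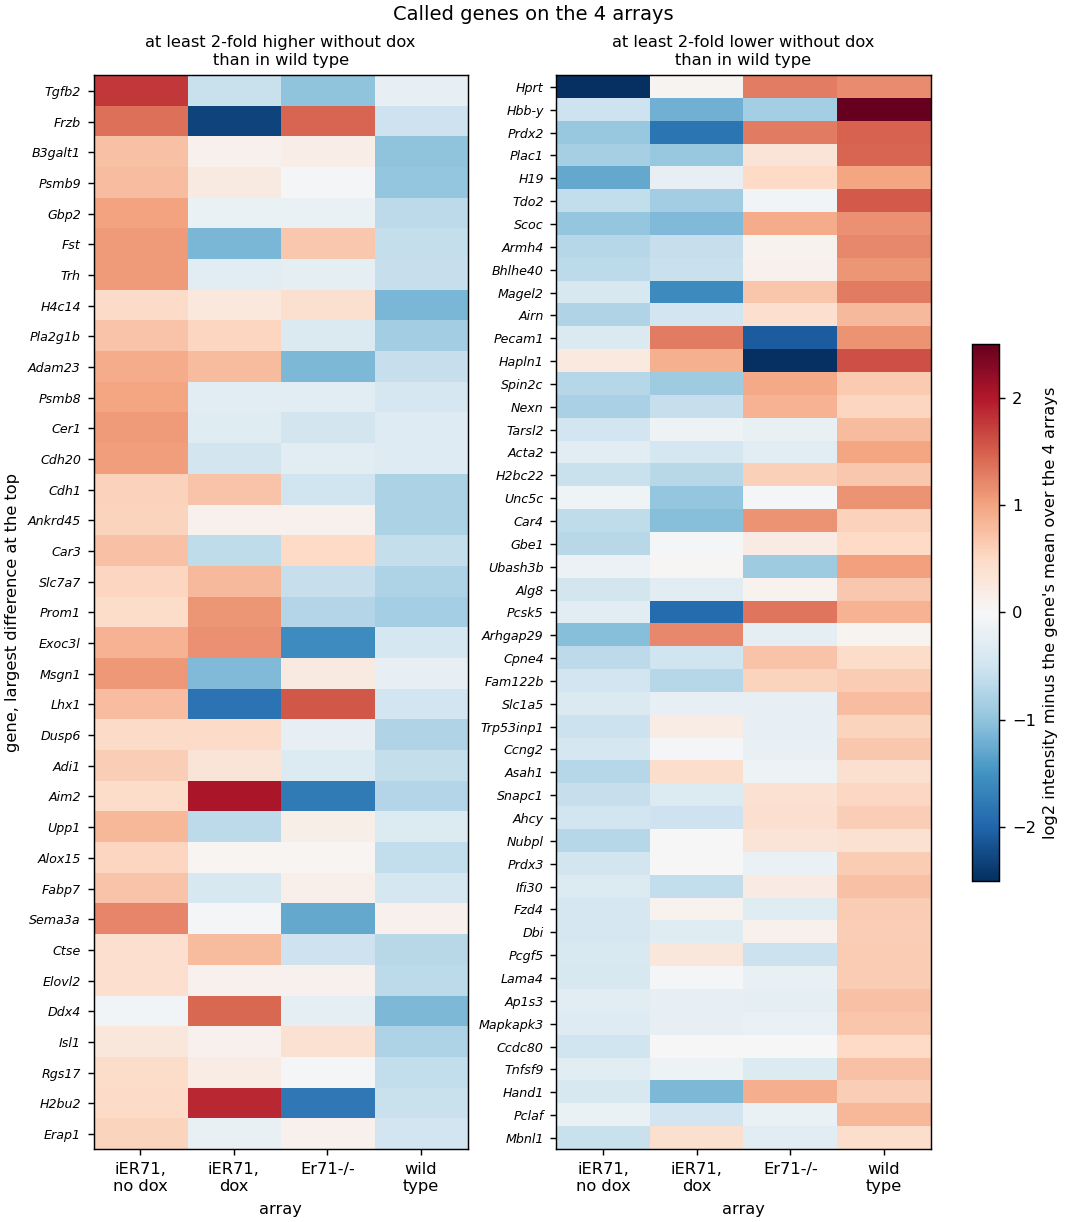
Called genes, without the 6 that the naming rule leaves out, on the 4 arrays (columns), in order of their difference between untreated iER71 and wild type. The colour is the log2 intensity minus the gene's mean over the 4 arrays, from -2.5 (blue) to 2.5 (red). Rows with a dark cell in 1 column show an array that stood apart, such as wild type for Hbb-y and untreated iER71 for Hprt and Tgfb2.

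Embryonic globin genes had their highest values in wild type. They are switched on in the primitive red cells that arise from Flk-1-positive mesoderm. The 250 bases upstream of the transcript start of the detected globin genes are shown because erythroid genes are known targets of GATA1 and of KLF1. They come from RefSeq (GRCm38.p6). Capitals mark GATAA, the core of GATA sites, and CACCC, the core of KLF sites, searched on both strands.
Hbb-y (chr7:103853208-103853457, minus strand): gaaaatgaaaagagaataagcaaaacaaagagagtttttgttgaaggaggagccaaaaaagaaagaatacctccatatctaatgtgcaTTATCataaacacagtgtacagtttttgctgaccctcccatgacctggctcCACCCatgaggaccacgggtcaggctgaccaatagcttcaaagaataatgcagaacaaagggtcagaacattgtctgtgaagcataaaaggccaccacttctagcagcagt
Hba-x (chr11:32276350-32276599, plus strand): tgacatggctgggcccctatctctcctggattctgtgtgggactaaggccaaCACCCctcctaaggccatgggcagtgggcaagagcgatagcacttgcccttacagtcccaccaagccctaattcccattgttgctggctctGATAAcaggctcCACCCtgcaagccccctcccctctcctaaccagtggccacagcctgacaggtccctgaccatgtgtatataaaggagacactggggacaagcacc
Over all 32851 promoter entries of the table, 22.6% hold GATAA and 52.0% hold CACCC in this window, so either match is common.

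Hbb-y, the embryonic beta-like globin gene, was at a log2 intensity of 5.63 without doxycycline, 4.94 with it, 5.29 in Er71-/- and 8.71 in wild type. Wild type alone was above the detection level, and the gene was 8.48-fold lower in the untreated line. Hba-x, the embryonic alpha-like globin gene, was at 6.90, 6.49, 6.56 and 7.61 in that order. It was brightest in wild type too, but its difference of 1.63-fold did not reach the threshold. In bulk RNA, fewer cells of a type and less RNA per cell cannot be told apart. Of 6 detected members of the globin and red-cell list, 1 was at least 2-fold lower and none higher by that size. Over all detected genes 0.554% were lower and 0.441% higher, the shares to set beside this and the later lists. The erythroid factor gene Gata1 was at 6.07 without doxycycline and 6.52 in wild type, and Klf1 (5.64 and 5.77) was not detected. Hbb-y and Gata1 passed the detection filter through the wild-type array alone, where they were high. The list's median difference was -0.35, but -0.14 over all its measured members and -0.20 over those at the detection level on both arrays, against 0.00 for all detected genes.

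Blood regulators themselves differed little. None of 16 detected genes passed 2-fold, and the median difference was -0.04. Runx1, needed for the emergence of definitive blood, was 1.61-fold lower without doxycycline (7.24 against 7.92), and Hhex was 1.42-fold lower. Lmo2 was 1.21-fold higher, and the cytokine receptor gene Kit was at 7.60 and 7.65.

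Endothelial genes as a group were alike on both arrays, with exceptions. Of 27 detected genes, 2 were at least 2-fold lower without doxycycline and none was higher by that size, with a median of -0.03. Part of this likeness is between values near background. Cd93, Cldn5, Clec14a, Emcn, Esam, Mmrn2, Myct1, Plvap and Vwf lay below the detection level on both arrays. They entered through the doxycycline array alone, and Clec14a, Esam, Mmrn2 and Vwf had equal values on the pair. Pecam1, an adhesion molecule of vessel cells, was at 7.08 without doxycycline, 8.73 with it, 5.36 in Er71-/- and 8.56 in wild type. The untreated array lay 2.80-fold under wild type, between it and the Er71-/- array. Arhgap29, a GTPase regulator, was at 7.41, 9.67, 8.25 and 8.54, lowest on the untreated array. The angiopoietin receptor gene Tek was 1.80-fold lower without doxycycline, whereas the VEGF receptor gene Flt1 was 1.46-fold higher. Among 15 detected ETS factor genes none passed 2-fold, and the median was -0.05. Fli1 differed by 1.07-fold, Erg was 1.54-fold lower and Etv5 was 1.90-fold higher without doxycycline.

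Imprinted genes are expressed from the copy of a single parent. Of 17 detected members, 3 were at least 2-fold lower without doxycycline and none higher, with a median of -0.17. The maternally expressed non-coding RNA gene H19 was at 8.51 without doxycycline, 9.58 with it, 10.30 in Er71-/- and 10.78 in wild type, 4.83-fold lower in the untreated line than in wild type. Its neighbour Igf2, expressed from the paternal copy, was 1.42-fold lower, at 9.86 against 10.37. Airn, the paternally expressed non-coding RNA gene that runs antisense across Igf2r, was at 5.90 and 6.18 on the iER71 arrays, 7.08 in Er71-/- and 7.47 in wild type. Its untreated value lay below the detection level, and its doxycycline value just above it. Igf2r itself was 1.35-fold lower. Whether the Airn probe set tells the strands apart is not given in the sources used here. The third member, Magel2, was described above, and its neighbours Ndn (1.01-fold) and Peg12 (1.03-fold) did not share its difference.

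The untreated array was high for genes of the immunoproteasome, the proteasome variant that prepares peptides for MHC class I. Psmb8 was at 8.37 without doxycycline and at 7.11, 7.11 and 6.96 with doxycycline, in Er71-/- and in wild type, 2.65-fold higher than in wild type. Psmb9 was at 7.76, 7.21, 6.95 and 6.03 in the same order, a 3.32-fold difference. Its wild-type value lay below the detection level. Psmb10, the third catalytic subunit gene, was at 8.50, 7.46, 7.25 and 7.50 and lay just under the threshold (1.997-fold). The untreated array was the brightest for each subunit gene, and for Psmb8 and Psmb10 the other arrays lay close together.

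Other genes that interferon is known to induce or that act on the same peptides were partly alike. Gbp2, an interferon-induced GTPase gene, was at 7.56 without doxycycline and at 6.39, 6.39 and 5.90 on the other arrays, 3.15-fold higher than in wild type. Its wild-type value lay below the detection level. The peptide-trimming gene Erap1 was 2.03-fold higher (7.42 against 6.40). In the MHC and interferon list, however, only Psmb8 and Psmb9 of 8 detected members passed 2-fold, against 0.995% of all detected genes. The median was 0.21, but 0.09 without the detection filter and 0.76 with a stricter filter at the 75th percentile. Irf1 was 1.32-fold and Tapbp 1.23-fold higher, B2m differed by 1.07-fold, and Bst2 differed by -0.59 on the log2 scale. Tap1, which lies between Psmb9 and Psmb8, had the same value on all 4 arrays (5.99), below the detection level. Ifi30, a lysosomal thiol reductase gene that interferon induces, was 2.10-fold lower without doxycycline. Psmb10, Gbp2, Erap1 and Ifi30 were outside the list and were put beside it after their values were seen.

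The upstream windows of the 3 genes with the largest differences of this kind are shown to let the known interferon elements be read. They too are from RefSeq (GRCm38.p6). Capitals mark the interferon factor element (GAAA, any 2 bases, GAAA), read by interferon regulatory factors, and TTCNNNGAA, read by STAT factors, on both strands.
Psmb8 (chr17:34197945-34198194, plus strand): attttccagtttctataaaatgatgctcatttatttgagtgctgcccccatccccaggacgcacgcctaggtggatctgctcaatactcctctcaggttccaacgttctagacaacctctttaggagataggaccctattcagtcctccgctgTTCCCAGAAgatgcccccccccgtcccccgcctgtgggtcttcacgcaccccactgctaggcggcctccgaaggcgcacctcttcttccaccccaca
Psmb9 (chr17:34187331-34187580, minus strand): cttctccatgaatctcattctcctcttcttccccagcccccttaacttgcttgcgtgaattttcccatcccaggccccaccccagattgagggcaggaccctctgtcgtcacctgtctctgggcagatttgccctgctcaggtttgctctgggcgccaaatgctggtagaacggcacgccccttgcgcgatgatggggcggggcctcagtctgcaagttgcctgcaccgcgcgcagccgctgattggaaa
Gbp2 (chr3:142620413-142620662, plus strand): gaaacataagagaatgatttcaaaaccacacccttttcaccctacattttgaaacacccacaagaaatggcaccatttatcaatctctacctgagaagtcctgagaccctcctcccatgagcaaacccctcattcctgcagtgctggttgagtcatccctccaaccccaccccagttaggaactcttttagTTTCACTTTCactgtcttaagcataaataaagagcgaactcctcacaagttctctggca
Gbp2 has a match to the interferon factor element at position -59 from the transcript start, which 2.98% of all promoter entries hold somewhere in this window. Psmb8 has a TTCNNNGAA match at -97, which 7.02% of entries hold. Psmb9 has neither sequence in these letters.

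Several of the higher genes encode secreted signals or their antagonists. Tgfb2, a TGF-beta ligand gene, was at 8.80 without doxycycline, 6.47 with it, 6.03 in Er71-/- and 6.83 in wild type, 3.90-fold higher in the untreated line than in wild type. Frzb, a secreted Wnt antagonist gene, was at 9.91, 6.21, 9.97 and 8.0, and Fst, whose product binds activin, was at 9.01, 6.81, 8.63 and 7.35. Tgfb2 was thus high on the untreated array alone, while Frzb and Fst were high on the untreated and Er71-/- arrays. Trh, the gene of thyrotropin-releasing hormone, was 3.12-fold higher without doxycycline, at 9.32 against 7.68 to 8.03 on the others. In the lists of Wnt (23 detected), BMP (19) and Nodal and TGF-beta genes (14), Frzb, Fst and Tgfb2 were the single members past 2-fold, and the medians were 0.04, 0.03 and 0.00. Bmp4 differed by 1.06-fold, and the BMP-binding gene Bmper was 1.79-fold higher without doxycycline.

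In the primitive streak list 3 of 14 genes reached 2-fold on the higher side and none on the lower. The median was 0.25 (0.07 over members at the detection level on both arrays). On the higher side the share over all detected genes was 0.441%. Cer1, whose product blocks Nodal and BMP, was at 7.21 without doxycycline and at 5.84, 5.68 and 5.82 on the others. Msgn1, a presomitic transcription factor gene, was at 6.89 without doxycycline, 4.70 with it, 6.03 in Er71-/- and 5.61 in wild type. Lhx1, a LIM homeobox gene of the streak, was at 8.12, 5.49, 8.89 and 6.87. The untreated array was above wild type for each, and only for Lhx1 was Er71-/- higher still. Cer1, Msgn1 and the uncalled Tbx6 passed the detection filter through the untreated array alone, where they were high. The count of higher genes in this list therefore depends in part on the filter. Mixl1 (1.70-fold), Mesp1 (1.38-fold) and Eomes (1.20-fold) were higher without doxycycline but under the threshold.

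Few cardiac genes passed 2-fold, and those by little. Of 15 detected, Isl1 was 2.09-fold higher and Hand1 lower, and the median was 0.00. Isl1, of cardiac progenitors, was low in wild type alone (6.49, against 7.38 to 7.63). The troponin gene Tnnt2 was 1.94-fold lower without doxycycline, at 7.21 against 8.17. In the smooth muscle list, Acta2, the smooth muscle actin gene, was the only one of 14 past 2-fold, with wild type at 8.35 and the other arrays at 6.92 to 7.09. The calponin gene Cnn1 was 1.56-fold higher and the pericyte gene Rgs5 1.58-fold lower.

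FGF signalling was represented by Dusp6, the phosphatase gene that ERK signalling induces. It was at 8.69 and 8.70 on the iER71 arrays, 8.0 in Er71-/- and 7.46 in wild type, 2.34-fold higher in the untreated line than in wild type. It was the only one of 18 detected FGF and MAPK genes past 2-fold, and the median was 0.17. The feedback gene Il17rd was 1.77-fold higher, Spry4 differed by 1.13-fold, and the receptor gene Fgfr2 was 1.80-fold lower.

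Of 17 detected pluripotency genes none passed 2-fold, and the median was 0.11. Pou5f1 was at 8.68 without doxycycline, 9.26 with it, 8.68 in Er71-/- and 7.89 in wild type, so wild type was lowest. Nanog differed by 0.68 on the log2 scale (untreated minus wild type) and Zfp42 was 1.86-fold higher. The epithelial genes Cdh1 and Epcam (1.72-fold) and the mesenchymal cadherin gene Cdh2 (1.59-fold) were all higher. Of 6 detected germline genes, Ddx4 alone passed 2-fold. Their median was 0.66, but 0.10 over all 19 on the array and 0.39 over those at the detection level on both arrays. Ddx4, Sycp3 and Tex19.1 passed the filter through the doxycycline array alone. Sycp3 was 1.81-fold higher (5.68 against 4.82), below the detection level on both arrays. Of 25 germline genes listed, 13 of the 19 on the array were not detected.

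Of 22 detected hypoxia and glycolysis genes none passed 2-fold, and the median was -0.24. The glucose transporter gene Slc2a1 was 1.95-fold lower without doxycycline, with wild type at 10.37 and the other arrays at 9.35 to 9.56. P4ha1, a collagen hydroxylase gene, was 1.78-fold and Vegfa 1.43-fold lower, and wild type was the brightest array for each. Bhlhe40, a transcriptional repressor that hypoxia can induce but that is outside the list, was at 6.18, 6.27, 6.95 and 7.94 without and with doxycycline, in Er71-/- and in wild type (3.40-fold lower).

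Redox and detoxification genes had a median of -0.28 over 20 detected members. Prdx2 and the mitochondrial Prdx3 were at least 2-fold lower without doxycycline and none was higher by that size. The share lower over all detected genes was 0.554%. Prdx3 was at 7.29, 7.73, 7.57 and 8.38, so wild type stood above the others, unlike for Prdx2. Gstm5, a glutathione transferase gene, was 1.93-fold higher, and the haem oxygenase gene Hmox1 was 1.71-fold lower.

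Matrix genes past 2-fold were both lower, 2 of 25 detected, against 0.554% of all detected genes. The matrix median was -0.07. Hapln1, which links hyaluronan to proteoglycans, was at 7.03 without doxycycline, 7.68 with it, 4.01 in Er71-/- and 8.39 in wild type. The laminin gene Lama4 was 2.03-fold lower. In the immediate-early and stress list 1 of 26, the p53 target Trp53inp1 (2.15-fold lower), passed 2-fold, with a median of -0.06. Ier3 (1.99-fold lower) and Egr2 (1.79-fold higher) lay under the threshold.

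Further genes called lower in the untreated line were brightest in wild type, an order that the call itself favours. The threonyl-tRNA synthetase gene Tarsl2 (2.42-fold), the glutamine transporter gene Slc1a5 (2.16-fold) and the cell cycle gene Ccng2 (2.14-fold) were of this kind. For Slc1a5 the other arrays lay at 6.76 to 6.91, with wild type at 7.87. Pclaf, whose product binds the replication clamp PCNA, was at 10.83 in wild type and at 9.51 to 9.83 on the others. Tdo2, of tryptophan breakdown, was above the detection level in wild type alone (6.28, against 3.87 to 4.68). Armh4 (3.75-fold), the netrin receptor gene Unc5c (2.33-fold) and the Wnt receptor gene Fzd4 (2.08-fold) were brightest in wild type as well. Proliferation genes did not go with these: none of 23 detected passed 2-fold, the median was 0.00, and Mki67 differed by 1.03-fold.

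Among higher genes of other roles, B3galt1, a glycosyltransferase gene, was at 7.10 without doxycycline and 5.35 in wild type, with the others at 6.46 and 6.52 (3.35-fold). The phospholipase gene Pla2g1b was 3.00-fold higher, at 7.53 and 7.36 on the iER71 arrays against 6.47 and 5.95. Cdh20, a cadherin gene, was high on the untreated array alone (7.25, against 5.75 to 5.93). The histone gene H4c14 was low in wild type alone (5.50, against 6.91 to 7.13), and its near-identical copies leave that value uncertain. Wild type lay below the detection level for B3galt1, Pla2g1b, Cdh20 and H4c14. Cdh20 passed the filter through the untreated array alone. Fabp7, a fatty acid-binding gene of neural progenitors, was 2.20-fold higher and the only one of 12 neuroectoderm genes past 2-fold (median 0.12). Cer1, detected through the untreated array alone, was the only one of 16 endoderm genes (median 0.07).

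**Figure D5:**
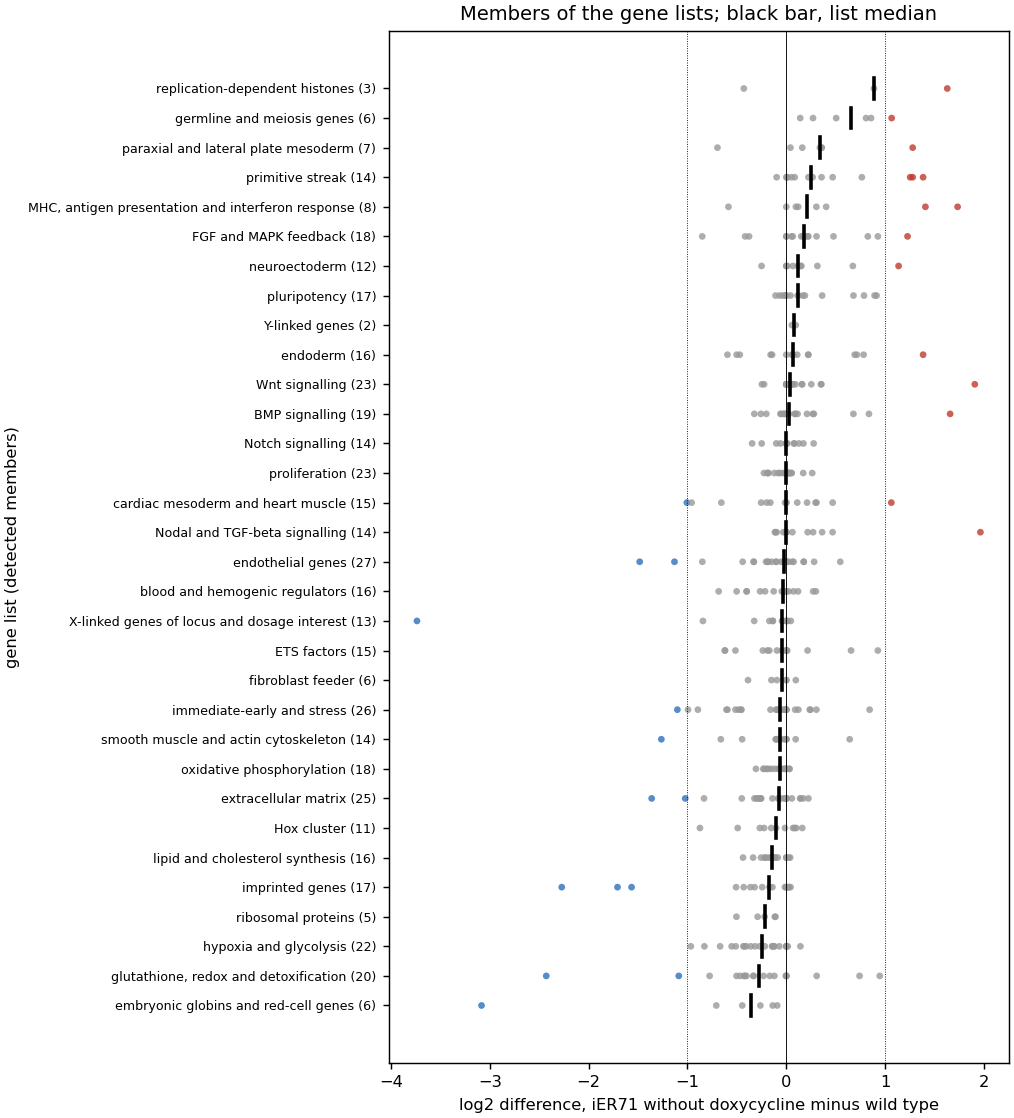
Log2 difference between untreated iER71 and wild type (x axis) for the detected members of each gene list (rows, number of detected members in brackets). Points are genes, red and blue where past 2-fold, and the black bar is the list's median. Medians lie between -0.35 and 0.89, and the outer ones belong to lists of 3 to 7 members.

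Other lists showed no gene past 2-fold. This held for Notch genes (14 detected, median 0.00), the Hox cluster (11, -0.10), oxidative phosphorylation (18, -0.07), lipid and cholesterol synthesis (16, -0.15), ribosomal proteins (5, -0.22) and fibroblast feeder markers (6, -0.05). The feeder genes Col1a1 and Col1a2 had equal values on both arrays. Hoxb2 was 1.83-fold lower without doxycycline. Of the Y-linked genes on the array, Eif2s3y differed by 1.04-fold (8.09 against 8.03). Sry differed by 1.07-fold (6.34 against 6.25), near the detection level. Kdm5d had the same value on all 4 arrays (4.32), below the detection level. In the paraxial and lateral plate list Msgn1 was the single gene of 7 past 2-fold (median 0.34, and 0.04 without the detection filter). Msgn1 and Tbx6 of this list passed that filter through the untreated array alone. In the list of 3 detected histone genes the single gene past 2-fold was H4c14 (median 0.89, and 0.13 without the filter). The X-linked list held Hprt alone of 13 past 2-fold (median -0.04), and Fhl1 had the next largest difference (-0.84).

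Just inside 2-fold on the higher side lay Erap1 (2.03-fold), H2bu2 (2.04-fold), Olfr429 (2.04-fold) and Rgs17 (2.09-fold), and just outside lay Epha7 and Psmb10 (both 2.00-fold after rounding) and Hook1 (1.98-fold). On the lower side Mbnl1, Pclaf and Hand1 (each 2.01-fold) lay just inside, and Mtfr2, Fabp3 and Ier3 (2.00-fold, 2.00-fold and 1.99-fold) just outside.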

How the data were processed

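RNA of 4 samples, 1 array each, had been amplified from small inputs and hybridised to Affymetrix arrays. The authors deposited values of 23332 probe sets as intensity on a linear scale. Per the submitters' processing notes, the tools were RMA and Affymetrix Expression Console, and the build was mm8. Here log2 was taken with no offset or further scaling. Median intensities were 71.3 to 72.3, and Pearson's r between arrays over probe sets was 0.967 to 0.979. No detection call came with the values. The single array of each group limits the precision, and folds of dim genes rest on values near background.

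The platform annotation left 7317 probe sets unnamed, gave several symbols to 1019 and a single symbol to 14996. For genes with several probe sets (135), the brightest on average was used. Differences were called by size alone, at 2-fold. The genes named are Etv2, Kdr, the 25 largest differences each way, up to 5 members of each of 32 lists, those called in both pairs, and those nearest the threshold; predicted genes and olfactory receptors were left out of the ranking. The comparison and the lists were chosen with earlier results of these data known. Of 713 list genes, 561 had a named probe set and 442 were detected. Promoter entries and gene order came from RefSeq (GRCm38.p6), and no coordinates of that build were joined to the arrays. Alternatives were median centring, quantile normalization, cyclic loess (limma 3.58.1 in R 4.3.3), other filters, an offset of 32 and the median of probe sets. The call rule was tested on simulated data.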

Additional observations from a re-analysis of the deposited data

How the results depend on the processing

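Median centring, quantile normalization, cyclic loess and the median of a gene's probe sets left each count of called genes within 1.5 times its value, and these scalings moved the median of detected genes by at most 0.026. Without a detection filter, 97 genes were higher and 94 lower, and 18 were higher in both pairs. With the stricter filter (75th percentile, 4628 genes) 19 were higher and 38 lower, and with both arrays of the pair at the detection level 21 were higher and 39 lower. An offset of 32 on the linear scale left 24 higher and 24 lower, of which 6 and 7 in both pairs. No called difference of a named gene was reversed under any of these, but the filters and the offset cannot turn a sign. Quantile normalization took 10 named genes under 2-fold, among them Lama4 (-0.97) and Hand1 (-0.95), and took Psmb10 over it (1.06). The offset took 36 under it, among them Ddx4 (0.57), Isl1 (0.85), Msgn1 (0.90), Erap1 (0.80) and Prdx3 (-0.95). Its construction shrinks differences of dim genes. List medians depended on the detection filter. Without it the medians were -0.14 for globin and red-cell genes, 0.04 for paraxial, 0.10 for germline, 0.09 for MHC and interferon and 0.13 for histone genes. With both arrays at the detection level they were -0.20 for globin, 0.07 for streak, 0.39 for germline and 0.23 for histone genes. With the stricter filter, which leaves fewer members, they were -1.61 for globin, 0.62 for streak, 0.76 for MHC and interferon, 0.67 for neuroectoderm, 0.50 for germline, 0.23 for histone, -0.04 for endoderm, 0.18 for Nodal and TGF-beta, 0.17 for Notch, -0.36 for hypoxia, -0.36 for Hox, -0.28 for stress and -0.28 for matrix genes. With the offset the germline median was 0.44. No paired analysis was possible because each group has 1 array, and no array could be left out.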

Other observations

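Probe sets without a single gene symbol were outside every comparison above. Of 8336 such probe sets 3789 reached the detection level, and 85 of these were at least 2-fold higher and 173 at least 2-fold lower without doxycycline than in wild type, together 6.81%, against 0.995% of detected genes with 1 symbol. The annotation gives several symbols to 1019 of the 8336 and none to 7317.

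Frg1, which lay just under 2-fold (1.92-fold) and belongs to no list, was at 10.64 and 11.01 on the iER71 arrays without and with doxycycline, and at 9.64 in Er71-/- and 9.70 in wild type. Hook1, of vesicle transport, was at 8.01 and 8.95 against 7.40 and 7.02 in the same order (1.98-fold between untreated and wild type). Both iER71 arrays were above both others for these genes. Prkar2b, a protein kinase A subunit gene, was at 8.94 without doxycycline, 9.93 with it, 6.36 in Er71-/- and 9.93 in wild type, 1.99-fold lower in the untreated line than in wild type.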
